A study of Mus musculus with 6 samples.

Results

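Genes of MHC class I and class II antigen presentation were read in brain RNA-seq libraries of 3 control mice and 3 mice overexpressing AP1AR-DT. The 10 genes were taken by their symbols from the 52390 listed: the class I chains H2-K1, H2-D1 and B2m, the transporter and loading genes Tap1, Tap2 and Tapbp, and, for class II, Cd74, H2-Aa, H2-Ab1 and H2-Eb1. All 10 passed the low-count filter, as did 21844 genes in all. AP1AR-DT is a human long noncoding RNA gene, also named AC109347.1. Its transcript was not among the mouse genes counted, so the overexpression itself was not checked here.

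Both groups were male C57BL/6J mice, whose genotype is given as wild type for the controls and as AC109347.1 overexpressed for the other mice. Each mouse was 8 weeks old when a recombinant adeno-associated virus was injected into the medial prefrontal cortex. In the AP1AR-DT_OE group the vector carried AP1AR-DT behind the hSyn promoter, which is active in neurons, and EGFP behind the CMV promoter. The control group received the empty vector, so the injection and the virus were shared by both groups and no uninjected brain was compared. Behaviour tests began 3 weeks after injection, and the time at which tissue was taken was not given in the sources used here. The tissue is called brain in the labels, cortex in the methods and, in the study's account of this RNA-seq, medial prefrontal cortex. The 3 AP1AR-DT_OE libraries carry numbers that do not match those of the mice, and are called A, B and C.

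MHC class I molecules are displayed by nearly all nucleated cells. Their heavy chains, encoded in the mouse by H2-K1 and H2-D1, pair with beta-2-microglobulin from B2m and hold peptides cut from proteins inside the cell, which the Tap1 and Tap2 transporter carries into the endoplasmic reticulum and tapasin, from Tapbp, helps to load. MHC class II molecules are dimers of an alpha and a beta chain, such as H2-Aa with H2-Ab1. They are guided by the invariant chain Cd74 and present peptides from engulfed material. H2-Eb1 encodes the beta chain of a second dimer, whose alpha chain gene is named as a pseudogene (H2-Ea-ps). The RNA of H2-Eb1 therefore need not mean that this dimer is formed. In the resting brain, class II genes are expressed mainly by macrophages of the meninges, vessels and choroid plexus and by rare dendritic cells, while class I genes are expressed more widely and both are raised by interferon-gamma.

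The promoters of these genes are shown first, since class I and class II promoters are known for a conserved arrangement of short elements that the genes of each class share. Windows from 250 bases before to 50 bases after the RefSeq start were matched by symbol for 7 of the 10 genes; those of Cd74, Tap2 and H2-Ab1 are not shown. The 250 bases before the start are printed for H2-K1 and H2-D1, the heavy chain pair, for Tap1 and for H2-Aa as the class II example, all on build GRCm38.p6, read 5′ to 3′ on the strand of the gene. The H2-K1 stretch is chr17:34000348-34000597 on the minus strand, directly before the annotated gene. The H2-D1 stretch is chr17:35262844-35263093 on the plus strand, and the GENCODE gene begins further 5′ than the RefSeq start. The Tap1 stretch is chr17:34187306-34187555 on the plus strand, in the region where Psmb9 begins on the other strand. The H2-Aa stretch is chr17:34287824-34288073 on the minus strand, directly before the gene. Capitals mark letters of 5 short motifs, found on either strand.
H2-K1: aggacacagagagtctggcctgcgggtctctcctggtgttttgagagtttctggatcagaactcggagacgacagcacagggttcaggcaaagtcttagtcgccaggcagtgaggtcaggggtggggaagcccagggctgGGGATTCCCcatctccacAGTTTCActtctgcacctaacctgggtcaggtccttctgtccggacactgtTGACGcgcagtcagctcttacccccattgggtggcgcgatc
H2-D1: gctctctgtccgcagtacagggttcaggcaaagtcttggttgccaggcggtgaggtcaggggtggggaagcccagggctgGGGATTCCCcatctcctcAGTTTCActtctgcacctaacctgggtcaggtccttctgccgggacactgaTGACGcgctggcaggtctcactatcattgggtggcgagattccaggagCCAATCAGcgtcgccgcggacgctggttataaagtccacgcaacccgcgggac
Tap1: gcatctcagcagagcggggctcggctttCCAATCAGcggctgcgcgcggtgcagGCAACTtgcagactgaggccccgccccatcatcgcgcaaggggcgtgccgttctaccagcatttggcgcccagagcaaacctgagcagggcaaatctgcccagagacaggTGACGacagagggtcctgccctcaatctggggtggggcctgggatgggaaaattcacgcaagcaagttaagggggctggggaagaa
H2-Aa: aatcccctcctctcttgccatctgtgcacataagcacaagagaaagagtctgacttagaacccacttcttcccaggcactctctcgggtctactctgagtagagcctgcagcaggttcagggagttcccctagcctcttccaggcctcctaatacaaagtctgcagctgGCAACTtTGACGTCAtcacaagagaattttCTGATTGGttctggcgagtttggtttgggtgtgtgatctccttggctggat

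The motifs were GGGATTCCC (kappaB letters of the class I enhancer A), AGTTTCA (part of an interferon-response element), GCAACT (of an X box), TGACG (of a cAMP-response element) and CTGATTGG (of a Y box), chosen after these sequences had been seen. The enhancer A letters lay in 2 of the 7 windows, H2-K1 and H2-D1, and in 0.353% of all 32851 windows. The interferon-response letters lay in 4 windows, of B2m, H2-K1, H2-D1 and H2-Eb1, against 3.92% of all. The Y box letters were in 5 windows, of H2-K1, H2-D1, Tap1, H2-Aa and H2-Eb1, against 4.10% of all. The X box letters were in the windows of Tap1, H2-Aa and H2-Eb1, 3 in all, against 10.9%. The TGACG letters were in 5 windows, of B2m, H2-K1, H2-D1, Tap1 and H2-Aa, against 20.8%; in H2-Aa a copy on each strand overlapped by 2 bases.

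The order of the letters was the same in both heavy chain genes. Enhancer A, the interferon-response letters and TGACG began at bases -170, -152 and -101 from the start in H2-D1 and at -110, -92 and -41 in H2-K1, whose RefSeq start lies further 5′ relative to these elements. The H2-K1 and H2-D1 windows aligned over 239 bases with 211 identical (88.3%) and shared an unbroken identical run of 47 bases. In H2-Aa the X box letters began at -81, TGACG at -74 and the Y box letters at -51, and in H2-Eb1 the X and Y box letters began at -91 and -62. No motif was found in the Tapbp window, which says only that these letters are not in it.

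**Figure D1:**
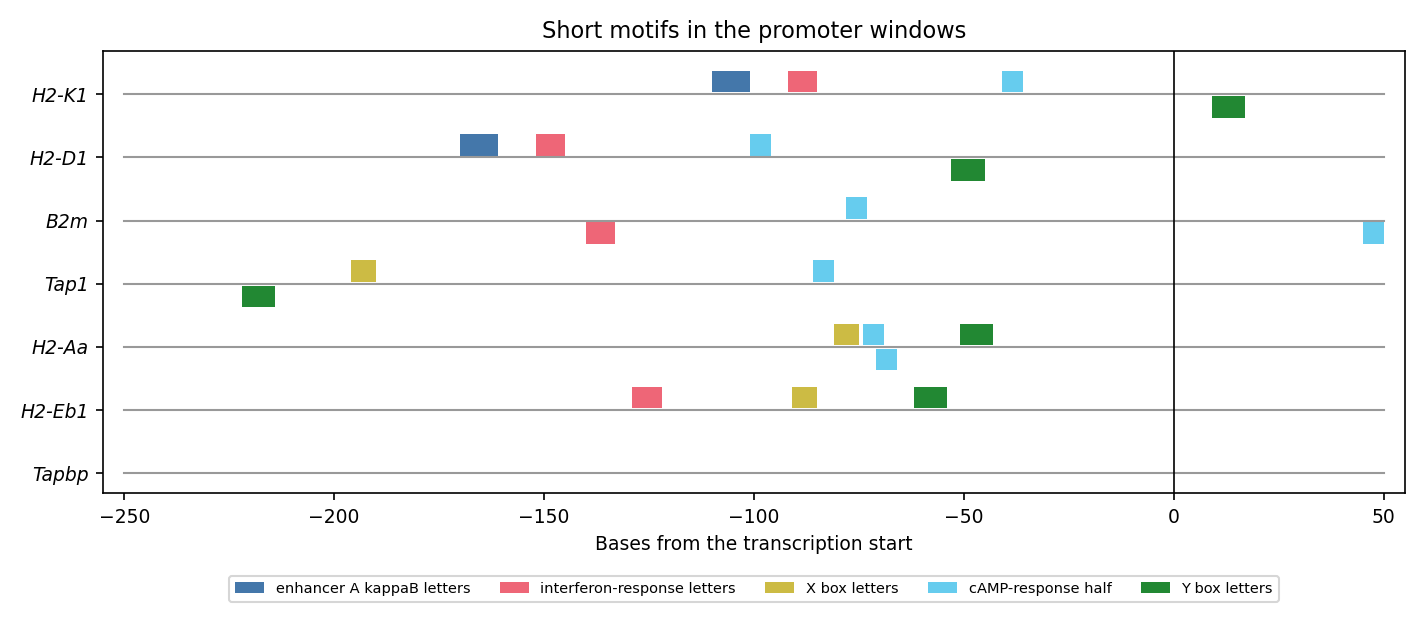
Positions of the 5 motifs in the RefSeq promoter windows of the 7 matched genes, in bases from the transcription start; boxes above a line lie on the strand of the gene and boxes below it on the other strand. The same order of elements appears in H2-K1 and H2-D1, and X box letters precede Y box letters in H2-Aa and H2-Eb1.

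The libraries held 42061721 to 54668294 counts. Common biological variation between libraries was 31.3% as a coefficient. Control 3 stood apart: the summed level of 10 choroid plexus markers was 5153 CPM (counts scaled to the library total) in it against 116.1 to 155.8 CPM in the other 5 libraries, and that of 8 meningeal and vascular fibroblast markers was 293.1 CPM against 26.7 to 88.6 CPM. Markers of cortical excitatory neurons were present in all libraries as a sum. The sum was 1168 to 2026 CPM in controls and 1705 to 2915 CPM in AP1AR-DT_OE libraries, but single markers varied far more. The median fold change of these 10 markers between groups was 0.61 on the log2 scale, against -0.01 over all genes tested. The part of this shift in the results below was not tested. Slc17a7, their vesicular glutamate transporter, was at 28.2, 3.86 and 233.1 CPM in controls 1, 2 and 3. In AP1AR-DT_OE A, B and C it was at 230.6, 463.3 and 87.2 CPM. Neurod6 was at 0.0803 CPM in control 2, 0.572 CPM in AP1AR-DT_OE C and 19.9 CPM in AP1AR-DT_OE B. Control 2 also stood apart by Avp, at 184.5 CPM against 0.172 to 15.1 CPM in the other 5 libraries. The percentage of mitochondrial counts was 7.20 to 9.86% in controls and 5.75 to 6.80% in AP1AR-DT_OE libraries. Fold change also followed the GC content of genes: its median was -0.30 on the log2 scale in the 2182 genes of lowest GC and 0.22 in the 2182 of highest, so values after a correction for GC content are given below beside the results it changes. In bulk tissue a change in the number of cells of a type cannot be told apart from a change in RNA per cell.

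H2-D1 and Tap1 were higher in AP1AR-DT_OE than in control mice, with 1.37-fold and 1.39-fold differences, and for both genes each AP1AR-DT_OE library lay above each control. These were the only calls among the 10 genes at P under 0.05 with a log2 fold change beyond 0.32 (edgeR's quasi-likelihood F-test). Both calls were upward, where 5.10% of all genes tested were called upward and 12.2% in either direction. None of the 10 had an adjusted P under 0.05 in edgeR or in any of 17 fits, DESeq2 among them, and 2 had an unadjusted P under 0.05. Of the 21844 genes tested, 0.0275% had an adjusted P under 0.05. After correction for GC content 0 of the 10 genes were called, against 2.84% of all genes called upward. Without control 3, 6 of the 10 were called, all upward (H2-K1, H2-D1, Tap1, Cd74, H2-Aa and H2-Eb1), against 5.64% of all genes.

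H2-D1 (ENSMUSG00000073411, chr17:35262730-35267499, plus strand), a classical class I heavy chain, was at 41.9, 55.4 and 50.1 CPM in controls 1, 2 and 3 and at 65.1, 65.8 and 71.4 CPM in AP1AR-DT_OE A, B and C. The lowest AP1AR-DT_OE library lay above the highest control. The means were 49.1 ± 6.77 and 67.5 ± 3.46 CPM (SD, n = 3 each), a log2 fold change of 0.46 (SE 0.12) with adjusted P = 0.295 by edgeR's quasi-likelihood F-test. An exact permutation test of log2 CPM gave P = 0.1, the smallest that 3 against 3 allows. P was under 0.05 in 15 of 17 fits with other settings or libraries, with a log2 fold change of 0.30 to 0.56 and an adjusted P of 0.0668 to 0.661. The exceptions were both GC-corrected fits, where the log2 fold change was 0.30 (adjusted P = 0.553) in all libraries and 0.31 (adjusted P = 0.629) without control 3. In H2-D1, 4.64% of 100-base stretches in the longest transcript also occurred in other genes, mainly H2-Q1, Gm7030 and H2-T23, so a small part of its count could have come from them.

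H2-K1 (ENSMUSG00000061232, chr17:33996017-34000347, minus strand), the other heavy chain, was at 28.7, 32.97 and 42.2 CPM in controls and at 38.8, 40.7 and 44.7 CPM in AP1AR-DT_OE mice. Its groups overlapped, because control 3 lay above AP1AR-DT_OE A and B. The log2 fold change was 0.26 (SE 0.16, adjusted P = 0.450, edgeR). When any single library but control 3 was left out it was 0.14 (without control 1) to 0.31 (without AP1AR-DT_OE A). Without control 3 it was 0.44 (SE 0.12, adjusted P = 0.399). With GC correction it was 0.135 in all libraries (adjusted P = 0.801, edgeR) and 0.29 without control 3 (adjusted P = 0.621), and was called in neither. The longest H2-K1 transcript held no 100-base stretch found in another gene, but stretches of H2-Q10 occurred in other transcripts of H2-K1.

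B2m (ENSMUSG00000060802, chr2:122147686-122153083, plus strand), the light chain that every class I molecule needs, was at 88.7, 72.0 and 66.4 CPM in controls and at 72.6, 71.1 and 81.2 CPM in AP1AR-DT_OE mice. The groups overlapped throughout. The means were 75.7 ± 11.6 and 74.9 ± 5.45 CPM (SD, n = 3 each), with a log2 fold change of -0.01 (SE 0.13, adjusted P = 0.967, edgeR). It was 0.23 after GC correction (adjusted P = 0.617): exon GC was 41.2% in B2m, against 54.3% in H2-K1 and 55.8% in H2-D1.

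Per kilobase of exon, H2-D1 stood at 0.158, 0.256 and 0.252 of the level of B2m in controls and at 0.299, 0.309 and 0.293 in AP1AR-DT_OE mice. These ratios did not overlap between groups (exact permutation P = 0.1), and B2m and H2-D1 differ in GC content. H2-D1 was above H2-K1 in all 6 libraries, by 1.35 to 1.91 times per kilobase, with overlapping groups (exact permutation P = 0.3). The ratio of H2-K1 to B2m ran from 0.0946 to 0.186, with the lowest and the highest value both in controls.

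**Figure D2:**
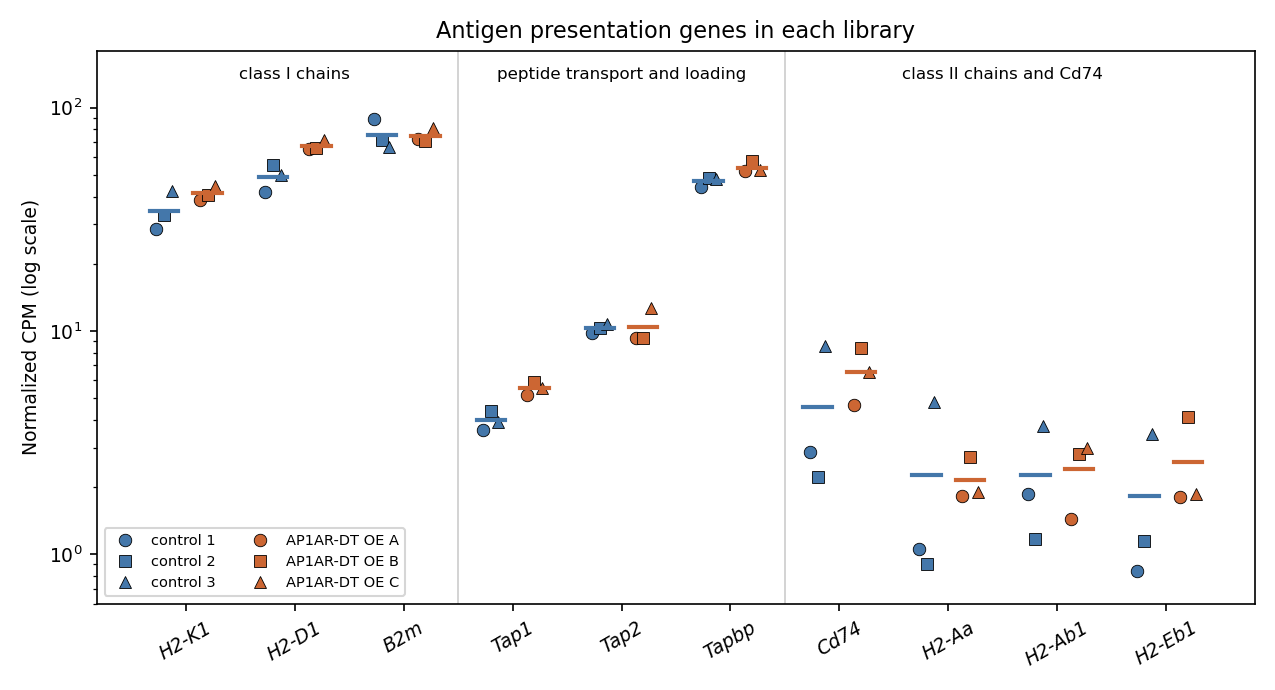
Normalized CPM (log scale) of the 10 antigen presentation genes in the 3 control and 3 AP1AR-DT_OE libraries; each point is a library and each bar a group mean. H2-D1, Tap1 and Tapbp are separated between groups, and control 3 is the highest control for all 4 class II genes.

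Tap1 (ENSMUSG00000037321, chr17:34187553-34197225, plus strand), one chain of the peptide transporter, was at 3.61, 4.398 and 3.92 CPM in controls and at 5.18, 5.90 and 5.53 CPM in AP1AR-DT_OE mice. The groups did not overlap. The means were 3.98 ± 0.395 and 5.54 ± 0.357 CPM (SD, n = 3 each), a log2 fold change of 0.48 (SE 0.17, adjusted P = 0.296, edgeR), with an exact permutation P of 0.1. P was under 0.05 in 13 of 17 fits, over which the log2 fold change was 0.30 to 0.56 and the adjusted P 0.259 to 0.680. The call was lost after GC correction (0.32, adjusted P = 0.593), with it and without control 3 (0.30, adjusted P = 0.680), without control 1 (0.41, adjusted P = 0.330) and without AP1AR-DT_OE B (0.43, adjusted P = 0.661). Tap1 and Psmb9 overlap head to head at their starts, and the use of strand in counting was not given in the sources used here.

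Tap2 (ENSMUSG00000024339, chr17:34203527-34216321, plus strand), the partner chain, was at 9.76, 10.3 and 10.7 CPM in controls and at 9.28, 9.31 and 12.6 CPM in AP1AR-DT_OE mice. A and B were the lowest of all libraries and C the highest. The log2 fold change was 0.02 (SE 0.16, adjusted P = 0.965, edgeR). The ratio of Tap1 to Tap2 per kilobase was 0.256, 0.295 and 0.253 in controls and 0.386, 0.437 and 0.303 in AP1AR-DT_OE mice, without overlap (exact permutation P = 0.1). GC content was 55.8% in Tap1 and 56.9% in Tap2, and this ratio was not computed with GC correction.

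Tapbp (ENSMUSG00000024308, chr17:33915899-33929292, plus strand), the tapasin gene, was at 44.3, 48.6 and 48.1 CPM in controls and at 51.9, 57.6 and 52.4 CPM in AP1AR-DT_OE mice. The groups did not overlap, but the difference of 1.15-fold was below the fold threshold (log2 fold change 0.20, SE 0.094, adjusted P = 0.361, edgeR; exact permutation P = 0.1) and was 0.02 on the log2 scale after GC correction. Of its 100-base stretches, 14.0% also occurred in other genes, nearly all of them in Gm19412 (13.9%). In all, the groups did not overlap for 3 of the 10 genes (H2-D1, Tap1 and Tapbp), where 22.4% of all genes tested were separated in this way. Without control 3 it was 7 of the 10, against 33.5% of all genes. With GC correction it was 2 of the 10, against 15.7% of all genes, and with both changes 6 of the 10, against 26.5%.

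The class II chains and Cd74 varied widely between mice of each group, and no group difference was called with all 6 libraries. Their summed level was 6.64, 5.42 and 20.6 CPM in controls 1, 2 and 3, and 9.75, 18.0 and 13.3 CPM in AP1AR-DT_OE A, B and C. Control 3 was thus the highest of all libraries, and the 3 AP1AR-DT_OE libraries lay between it and the other controls. The coefficient of variation in controls was 59.3 to 98.2% for these 4 genes, against 4.74 to 19.9% for the class I and loading genes.

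Cd74 (ENSMUSG00000024610, chr18:60803848-60812652, plus strand), the invariant chain, was at 2.88, 2.21 and 8.53 CPM in controls and at 4.68, 8.42 and 6.54 CPM in AP1AR-DT_OE mice, from 110 to 454 counts. The groups overlapped only through control 3. With all libraries the log2 fold change was 0.53 (SE 0.52, adjusted P = 0.645, edgeR), and 0.36 after GC correction (adjusted P = 0.836). When any single library but control 3 was left out it was 0.20 (without control 2) to 0.72 (without AP1AR-DT_OE A). Without control 3 it was 1.38 (SE 0.31, adjusted P = 0.399), and without control 3 and with GC correction 1.18 (adjusted P = 0.616).

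H2-Eb1 (ENSMUSG00000060586, chr17:34305867-34316674, plus strand), a class II beta chain, was at 0.836, 1.15 and 3.46 CPM in controls and at 1.81, 4.10 and 1.87 CPM in AP1AR-DT_OE mice. Control 3 and AP1AR-DT_OE B stood above the other 4 libraries. The log2 fold change was 0.51 (SE 0.60, adjusted P = 0.706, edgeR) and, without control 3, 1.40 (SE 0.47, adjusted P = 0.399). When any other single library was left out it was 0.02 (without AP1AR-DT_OE B) to 0.72 (without AP1AR-DT_OE A).

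H2-Aa (ENSMUSG00000036594, chr17:34282744-34287823, minus strand), a class II alpha chain, was at 1.06, 0.904 and 4.83 CPM in controls and at 1.83, 2.73 and 1.91 CPM in AP1AR-DT_OE mice. The highest library exceeded the lowest 5.34 times, the widest range of the 10 genes. The log2 fold change was -0.07 (SE 0.64, adjusted P = 0.966, edgeR), and without control 3 it turned to 1.15 (SE 0.33, adjusted P = 0.399).

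H2-Ab1 (ENSMUSG00000073421, chr17:34257689-34269419, plus strand), the partner of H2-Aa, was at 1.87, 1.17 and 3.76 CPM in controls and at 1.43, 2.80 and 2.97 CPM in AP1AR-DT_OE mice. AP1AR-DT_OE A lay below control 1, so the groups overlapped also without control 3. The log2 fold change was 0.08 (SE 0.48, adjusted P = 0.948, edgeR) and, without control 3, 0.68 (SE 0.42, adjusted P = 0.507). Of the class II genes it was thus the only one not called in the fit without control 3.

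With control 3 left out and GC content corrected, 3 of the 10 genes were called upward, Cd74, H2-Aa and H2-Eb1, against 3.34% of all genes. Such a fit compares 2 controls with 3 AP1AR-DT_OE mice. In the 2 controls kept, Slc17a7 was at 28.2 and 3.86 CPM, against 87.2 to 463.3 CPM in AP1AR-DT_OE libraries. Of 10 cortical excitatory neuron markers, 1 was called upward and 1 downward with all libraries. Without control 3 and before GC correction 3 were called upward, against 5.64% of all genes. The part of this difference in the calls was not tested. Control 3 stood apart by its choroid plexus markers, and its class II levels were known when it was singled out.

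Counts of the 3 class II chains were low, from 34 counts for H2-Eb1 in control 1 to 241 for H2-Aa in control 3. Per kilobase, Cd74 was above H2-Aa 4.00 to 7.76 times across the 6 libraries, with the lowest ratio in control 3. The ratio of Cd74 to H2-Eb1 ran from 2.23 to 4.05, with overlapping groups.

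Cell type markers were read beside the class II genes in each library. Choroid plexus and meningeal fibroblast markers were highest in control 3, as Cd74, H2-Aa and H2-Ab1 were, and the fibroblast markers were next highest in AP1AR-DT_OE B. Summed levels of 8 border-associated macrophage markers, the cells that carry most class II in the resting brain, were 10.6, 8.51 and 10.5 CPM in controls and 9.58, 14.6 and 10.2 CPM in AP1AR-DT_OE mice, with the highest value in AP1AR-DT_OE B. The 9 dendritic cell markers summed to 14.3 to 18.1 CPM in controls and 14.6 to 16.0 CPM in AP1AR-DT_OE mice, with Klrd1 at 0 in all libraries. Of the 9, 5 were at 0 in some or all libraries, Itgax among them, and 4 passed the low-count filter. Cd3d, Cd3g, Cd8b1, Gzmb and Nkg7 of the T and NK cell list and Ly6g and Retnlg of the monocyte and neutrophil list were at 0 in all 6 libraries. The 7 B cell markers summed to 9.06 to 16.9 CPM in controls and 12.6 to 15.9 CPM in AP1AR-DT_OE mice, the 11 T and NK cell markers to 3.57 to 6.74 and 5.13 to 11.5 CPM, and the 8 monocyte and neutrophil markers to 0.590 to 1.92 and 0.965 to 1.68 CPM. The part of these cells in the class II levels was not tested.

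**Figure D3:**
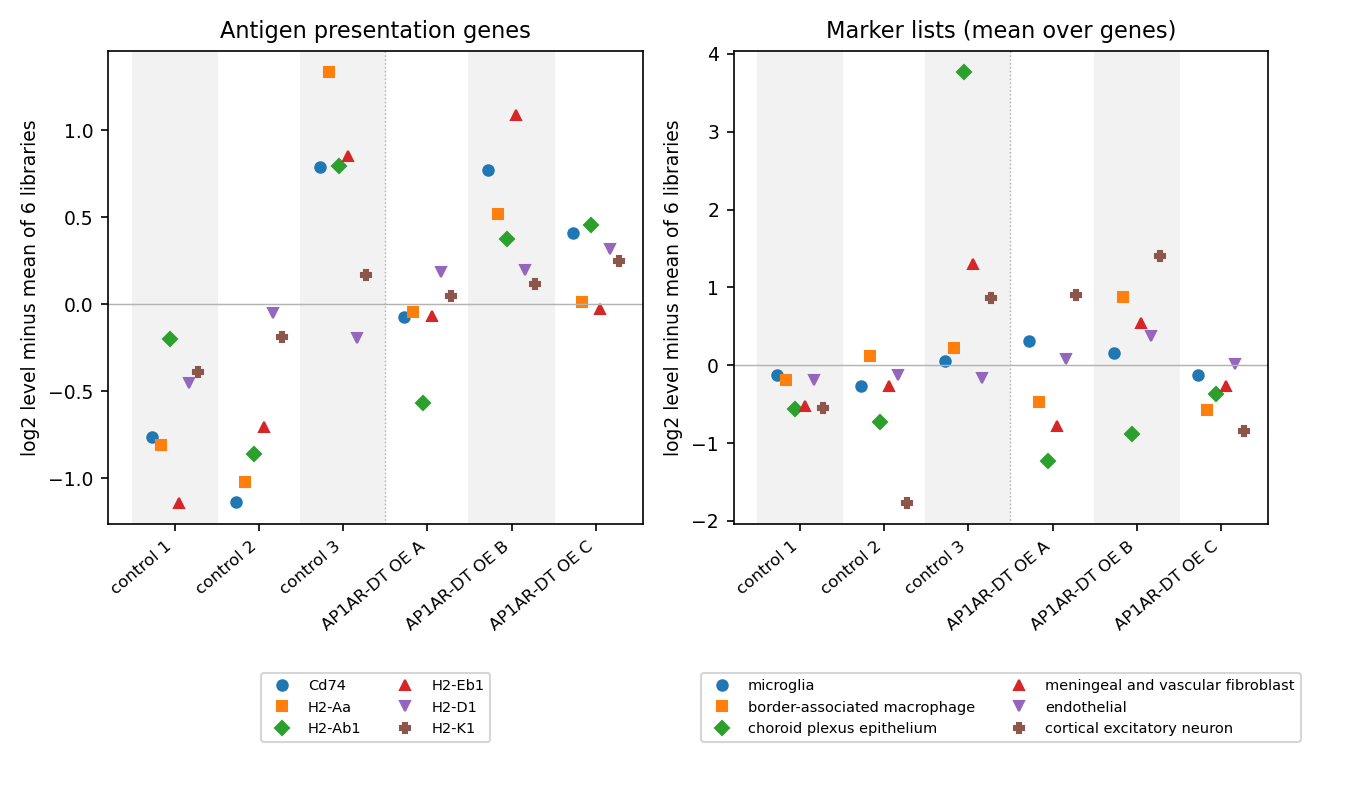
Log2 levels in each library minus the mean of the 6 libraries, for class II and heavy chain genes (left) and as the mean over the genes of 6 marker lists (right). Control 3 is high for the class II genes and for choroid plexus and meningeal fibroblast markers, and H2-D1 is higher in each AP1AR-DT_OE library than in any control.

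Microglial markers were read beside H2-D1 and Tap1. The 15 markers summed to 457.9 to 545.3 CPM in controls and to 495.1 to 665.0 CPM in AP1AR-DT_OE mice, and none was at 0 in any library. Of them 5 were called upward (C1qa, C1qb, C1qc, Trem2 and Tmem119), where 5.10% of all genes tested were called upward. The list median was 0.28 on the log2 scale, against -0.01 over all genes tested. After GC correction 0 were called, against 2.84% of all genes upward, and without control 3 the number was 6, against 5.64%. In AP1AR-DT_OE A, B and C the microglial sum was 665.0, 575.9 and 495.1 CPM, and H2-D1 was at 65.1, 65.8 and 71.4 CPM. The sums of A and B lay above every control, and that of C did not. Among 10 endothelial markers, which summed to 108.1 to 122.6 CPM in controls and 127.4 to 170.9 CPM in AP1AR-DT_OE mice, Cldn5 and Ly6c1 were called upward, with a list median of 0.29. The number called upward was 2 also after GC correction, and 2 without control 3. The part of microglia and endothelium in the class I difference was not tested.

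Per kilobase of exon, the control means ran from B2m at 88.0 CPM, through H2-D1 at 19.1, Tapbp at 12.96, H2-K1 at 11.8, Tap2 at 2.71, Cd74 at 2.70, H2-Eb1 at 0.933, H2-Ab1 at 0.882 and Tap1 at 0.727, to H2-Aa at 0.595 CPM. Tap2 and Cd74, and likewise the 4 genes from H2-Eb1 to H2-Aa, did not differ beyond the spread of the class II genes. In AP1AR-DT_OE mice B2m stood at 87.2, H2-D1 at 26.1, Cd74 at 3.90 and Tap1 at 1.01 CPM per kilobase. The class I light chain was thus the most abundant of the 10 by this measure in both groups.

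The other genes of the pathway were read from lists of class I heavy chains, class I peptide supply, class II loading, regulators, costimulation and interferon-stimulated genes. Of all genes tested, 5.10% were called upward and 12.2% in either direction, the shares to set beside the count of each list. Of 15 further class I heavy chain and class I-like genes tested, 2 were called upward and 1 downward, with a median log2 fold change of 0.25. H2-T10, a nonclassical class I gene, was at 1.25 ± 0.119 CPM in controls and 2.21 ± 0.545 CPM in AP1AR-DT_OE mice (SD, n = 3 each; log2 fold change 0.83, SE 0.28, adjusted P = 0.295, edgeR), but 29.7% of its 100-base stretches occurred in other genes. H2-T23, which encodes the Qa-1 molecule recognised by NK cell receptors, was at 8.85 ± 1.12 and 11.7 ± 1.36 CPM (0.40, SE 0.16, adjusted P = 0.318), with overlapping groups and 0.27 after GC correction (adjusted P = 0.608). Without control 3 neither was called, with log2 fold changes of 0.78 for H2-T10 (adjusted P = 0.402) and 0.35 for H2-T23 (adjusted P = 0.434). Mr1, which presents microbial metabolites to MAIT cells, fell from 14.0 ± 2.84 to 7.67 ± 1.73 CPM (-0.87, SE 0.22, adjusted P = 0.295), did not overlap between groups, and was -0.69 after GC correction (adjusted P = 0.534). With DESeq2 the adjusted P of Mr1 was 0.0371, and over all fits it was 0.0371 to 0.661.

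Of 12 genes of class I peptide supply and loading, 0 were called upward and 1 downward, with a median of -0.10. The share of all genes called in either direction was 12.2%. Pdia3, the ERp57 oxidoreductase of the loading complex, was at 103.8 ± 13.6 CPM in controls and 78.3 ± 6.27 CPM in AP1AR-DT_OE mice (log2 fold change -0.41, SE 0.12, adjusted P = 0.295, edgeR), and was still called after GC correction (-0.33, adjusted P = 0.539). The immunoproteasome subunits lie beside the Tap genes. Psmb8 was at 1.99, 1.77 and 1.32 CPM in controls and 2.38, 2.11 and 3.12 CPM in AP1AR-DT_OE mice, without overlap and without a call (0.58, SE 0.28, adjusted P = 0.360). Psmb9 was at 1.31 ± 0.538 and 1.94 ± 0.462 CPM (0.55, SE 0.39, adjusted P = 0.513).

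Of 11 further class II genes, which include the H2-DM and H2-O chains and lysosomal proteases, 1 was called upward, with a median of 0.09. The share of all genes called upward was 5.10%. H2-DMa, a chain of the H2-DM peptide exchanger, was at 9.94 ± 2.58 and 14.2 ± 1.93 CPM (log2 fold change 0.52, SE 0.22, adjusted P = 0.325, edgeR), with overlapping groups, and 0.38 after GC correction (adjusted P = 0.607). Without control 3 its log2 fold change was 0.52 and it was not called (adjusted P = 0.432). Cathepsin S (Ctss), the protease that trims the invariant chain, differed by 0.01 (SE 0.14).

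Of 19 regulators, 2 were called upward and 1 downward, with a median of -0.03. This is near the 12.2% of all genes that were called in either direction. Nlrc5, the class I transactivator, was at 0.823 ± 0.138 and 0.666 ± 0.146 CPM (log2 fold change -0.31, SE 0.38, adjusted P = 0.725, edgeR), and Ciita, the class II transactivator, was at 0.878 ± 0.211 and 0.569 ± 0.198 CPM (-0.62, SE 0.43, adjusted P = 0.506). The groups overlapped for each transactivator, and the point estimates lay below 0. Nfya and Nfyc, subunits of the Y box factor NF-Y, rose from 15.7 ± 0.997 to 20.1 ± 1.58 CPM and from 12.9 ± 1.80 to 17.8 ± 1.01 CPM (0.35, SE 0.12, adjusted P = 0.295, and 0.46, SE 0.14, adjusted P = 0.295). After GC correction Nfyc was 0.45 and still called, and Nfya was 0.30, below the fold threshold. Nfyb, the remaining subunit, was not called (0.25, SE 0.14). Creb1, a factor that binds cAMP-response elements, fell from 39.8 ± 3.00 to 27.6 ± 4.58 CPM (-0.53, SE 0.15, adjusted P = 0.295), and was -0.23 after GC correction (adjusted P = 0.682). NF-Y and Creb1 act at very many genes besides these.

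The interferon-stimulated list was not called upward in any of its 20 tested genes, with a median of 0.08 against -0.01 over all genes. In it 1 gene was called downward, where 5.10% of all genes were called upward and 12.2% in either direction. Without control 3, 1 gene was called upward and 1 downward, where 5.64% of all genes were called upward. Log2 fold changes in the list ran from -1.01 for Rsad2 to 1.75 (SE 1.02) for Oas1a, which was not called. Rsad2, which encodes the antiviral protein viperin, fell from 1.90 ± 0.333 to 0.942 ± 0.125 CPM (log2 fold change -1.01, SE 0.28, adjusted P = 0.295, edgeR). Among 6 costimulation genes 0 were called, with a median of -0.11. Irf1, a transcription factor induced by interferon-gamma, differed by -0.25 (SE 0.22) and was not called.

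**Figure D4:**
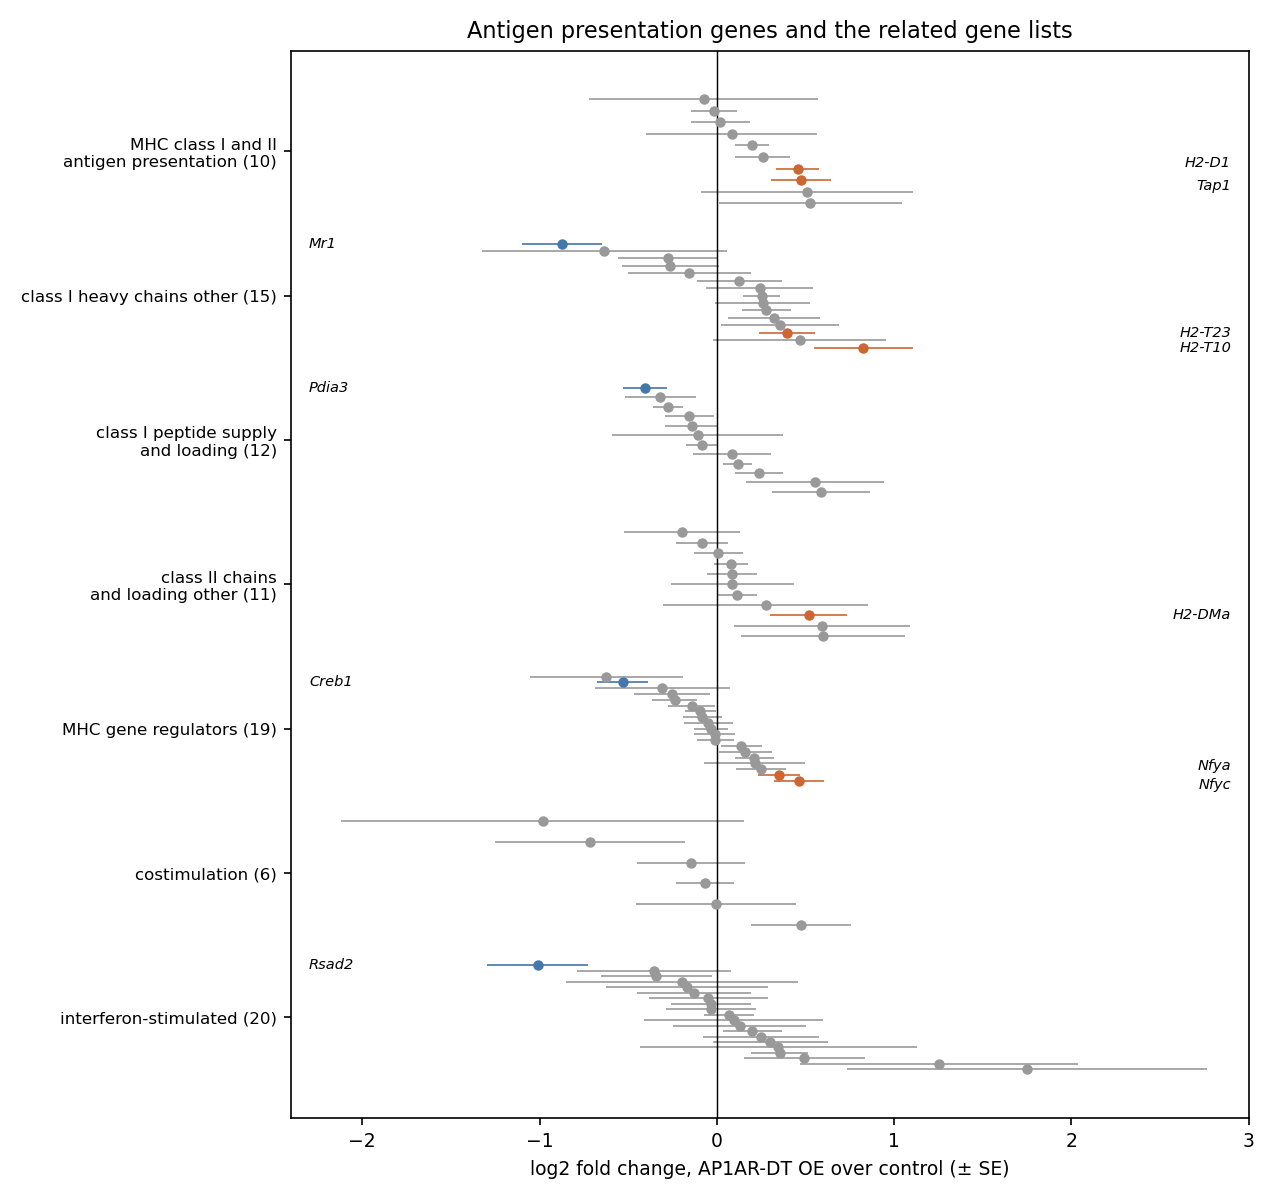
Log2 fold change of AP1AR-DT_OE over control with its SE for each tested gene of the 10 antigen presentation genes and 6 related lists; genes called at P under 0.05 beyond a log2 fold change of 0.32 are coloured and named at the margin, upward calls on the right and downward calls on the left. Calls are few in each list, and the class I heavy chain list holds calls in both directions.

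The position of the genes on the GC trend is given beside these results. Of the 10 genes, 6 (Cd74, H2-Ab1, H2-D1, Tap1, Tap2 and Tapbp) lay among the 2182 genes of 55.2 to 57.7% GC, where the median log2 fold change of all genes was 0.16. Among the genes nearest in GC content to H2-K1, H2-Eb1, B2m and H2-Aa, in the same division of all genes into 10 bins, the medians were 0.12, 0.08, -0.21 and -0.09. The median of the 10 genes themselves was 0.23.

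**Figure D5:**
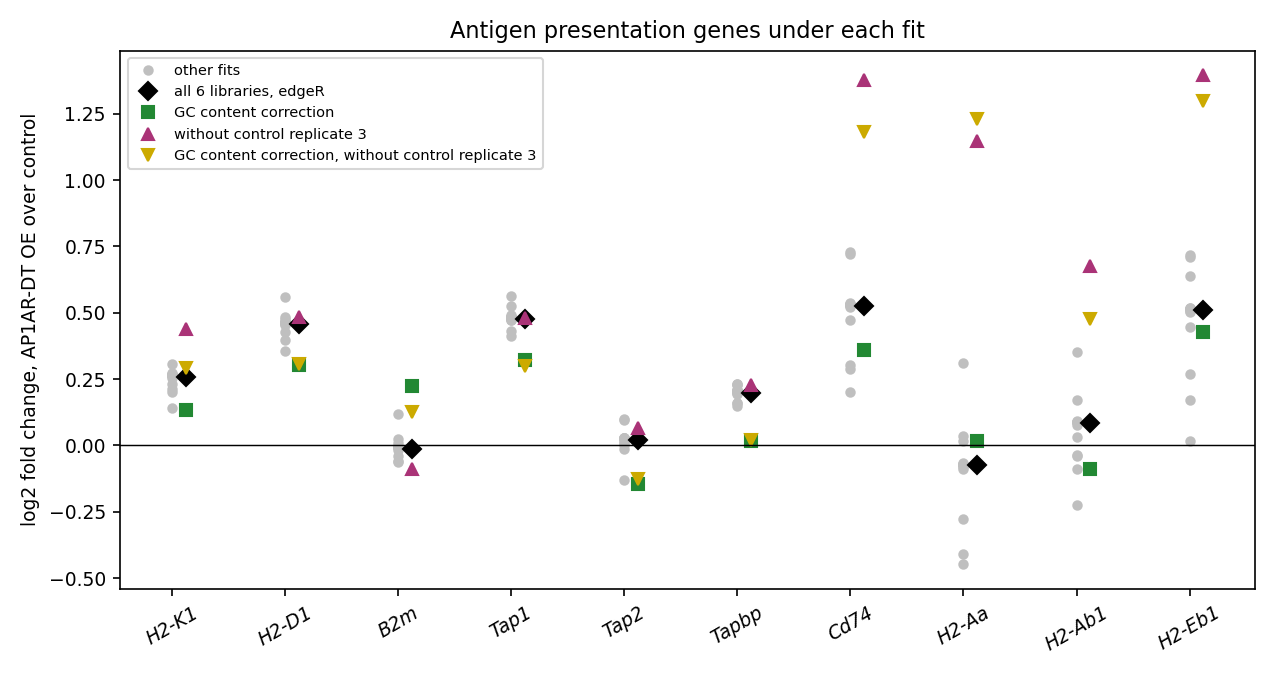
Log2 fold change of AP1AR-DT_OE over control for each of the 10 genes under 17 fits, with the fits that corrected for GC content, left out control 3 or did both marked. H2-D1 and Tap1 stay between 0.30 and 0.56, while Cd74, H2-Aa and H2-Eb1 range widely and are highest in the fits without control 3.

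Genes with a pattern across the 6 libraries like that of the class II mean were sought by the root mean square of the difference in centred log2 level, among 8805 genes that varied at least 0.5 times as widely. Nearest were Rspo3 (0.198), 2310016G11Rik (0.207), Necab3 (0.209), Gxylt2 (0.223) and Gm45091 (0.231). Rspo3, a secreted Wnt signalling enhancer, was highest in control 3 and second highest in AP1AR-DT_OE B, as the class II mean was. The class II genes themselves lay at 0.144 for Cd74, 0.207 for H2-Aa, 0.277 for H2-Eb1 and 0.319 for H2-Ab1, so H2-Ab1 followed their shared pattern least closely. For the mean of the class I chains, nearest of 21168 genes were Selenoo (0.0319), Safb (0.0325), Tbccd1 (0.0426), Pdzd7 (0.0441) and Xrcc2 (0.0457). Each lay closer to that mean than its own genes H2-K1 (0.130), H2-D1 (0.141) and B2m (0.207) did. All genes named as nearest were picked for their likeness, so that likeness is not a separate result.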

How the data were processed

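Per the study's methods, reads passed FastQC and were mapped by Bowtie2 (GRCm38), and from StringTie coverage of GENCODE genes the authors derived and deposited raw whole-number counts; versions and use of strand were not given in the sources used here. The submitters' processing notes name other tools (TopHat2 2.0.4, HTSeq, Cuffdiff, edgeR 2.6.12, build mm9), and which were used was not resolved. Bowtie2 does not split reads at introns. The table's own comparison columns (DESeq2 fold changes and P-values) were not used.

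Counts were fitted in edgeR 4.0.16 (R 4.3.3; filterByExpr, TMM, quasi-likelihood F-test, two-sided) over 21844 genes in all 6 libraries, with Benjamini-Hochberg adjustment over all genes. A call was P under 0.05 with an absolute log2 fold change above 0.32, the thresholds of the study. CPM are TMM-normalized. Alternatives were DESeq2 1.42.0, limma-voom 3.58.1, other scalings and filters, GC and length curves (splines with 5 degrees of freedom) and leaving out each library; the script was tested on simulated data. Coordinates, GC content and exon lengths are from GENCODE vM21 on GRCm38, promoters from RefSeq on GRCm38.p6; coordinates listed with the counts differed from that annotation for most genes and stayed unused. Replicates are mice; processing batches were not given in the sources used here.

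Pathway genes were named where called (at most 4 a list, by smallest P) or where they were Psmb8, Psmb9, Nlrc5, Ciita, H2-T23 or H2-DMa. Nfyb, Ctss, Irf1, Oas1a, Slc17a7, Neurod6 and Avp were added after their values were seen. The 10 genes and all lists were chosen with earlier results of these data known.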

Additional observations from a re-analysis of the deposited data

How the results depend on the processing

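Against the values in all 6 libraries, the number of genes called fell from 2675 to 1564 with GC correction and to 1527 with GC correction and without control 3, a combination chosen after seeing the data; leaving out 1 library gave 1430 (without AP1AR-DT_OE B) to 3508, with 1620 without AP1AR-DT_OE A. Of the 10 genes, 2 were called, 0 with GC correction, 3 with both changes, and 1 to 6 when 1 library was left out. The groups did not overlap for 3 genes, for 2 with GC correction, for 6 with both changes, and for 3 to 7 when 1 library was left out. H2-D1 kept P under 0.05 in all 6 fits that left out 1 library and Tap1 in 4 of them. Genes with a fold change near 0 turned direction: with GC correction B2m was 0.23, Tap2 -0.15, H2-Aa 0.018 and H2-Ab1 -0.088 on the log2 scale, with both changes B2m was 0.13, Tap2 -0.13 and H2-Aa 1.23, and limma-voom gave 0.31 for H2-Aa. Leaving out 1 library moved B2m from -0.088 to 0.12, Tap2 from -0.13 to 0.10, H2-Aa from -0.45 to 1.15 and H2-Ab1 from -0.23 to 0.68. The cause was not tested. In none of 17 fits did any of the 10 genes have an adjusted P under 0.05; the lowest was 0.0668, for H2-D1. Over 19 genes, the 10 genes and the called pathway genes named, and 16 alternatives, 246 of 304 values kept their direction and side of the threshold. Genes named without a call, such as Psmb8, Nlrc5 and Ciita, were not among them. H2-Aa, H2-Ab1 and H2-Eb1 had 34 to 241 counts a library and Cd74 110 to 454, which limits their precision. No paired analysis was possible because the groups share only 1 mouse number and the AP1AR-DT_OE columns do not name their mice.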
